A study of Mus musculus with 10 samples.

Results

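Tlr4, the receptor for bacterial lipopolysaccharide (LPS), was examined together with 8 genes whose products hand LPS to it, carry its signal or resemble it: Cd14, Ly96, Lbp, Myd88, Ticam1, Ticam2, Tirap and Cd180. These 9 genes were chosen by name out of the 32285 genes in each of 5 single-cell gene count tables of mouse lymph nodes, and all 9 are in every table. The series concerns, by its title, a Tlr4-dependent axis between fibroblasts and monocytes in nodes that drain a breast tumour. Here the questions were which node cells carry the parts of the LPS receptor and whether any condition changed that.

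LPS is a glycolipid of the outer membrane of Gram-negative bacteria. LBP, a secreted protein, lifts it from membranes and passes it to CD14, which loads it into the pocket of MD-2, the product of Ly96, on TLR4. The receptor signals from the cell surface through TIRAP and MYD88 towards inflammatory cytokines, and from endosomes through TICAM2 (also called TRAM) and TICAM1 (also called TRIF) towards interferon-induced genes. CD180 is a TLR4-like surface protein without a signalling domain. It pairs with the MD-2 relative encoded by Ly86, takes part in B cell activation and restrains TLR4 in myeloid cells.

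All mice were female wild-type BALB/c, 8 weeks old. The conditions were 4T1 and 67NR, which are mouse mammary carcinoma lines injected into the 4th mammary pad and grown for 18 days to 500 mm3, LPS given under the skin 72 hours before, and naive, meaning untreated. 4T1 spreads to other organs and 67NR does not. A minimum of 3 mice stood behind each condition, and no label ties a cell to a mouse, so each condition of a library is 1 pool. Axillary nodes gave a stromal library (4T1, 67NR, LPS and naive), a myeloid and stromal library (4T1, 67NR and naive), a T cell library (4T1, 67NR and naive) and a naive atlas, and mediastinal nodes gave a second naive atlas. Conditions inside a library were told apart by antibody hashtags. The LPS condition was read from a hashtag name of the stromal library, since its sample label lists the tumours and the control.

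A library held between 36622159 (stromal) and 121022621 (T cell) gene UMIs (unique molecular identifiers, 1 per captured transcript). Used cells numbered 2350 in the stromal, 5412 in the myeloid and stromal, 7210 in the T cell, 11503 in the axillary and 25148 in the mediastinal data, and their median depths were 12899, 10803, 10930, 6653 and 2272 UMIs. Libraries shared between 6 and 82 cell barcodes pairwise. Cells were placed in classes by counting markers, none of which is one of the 9 genes, and 48.4% of the mediastinal cells met a class against 85.4% to 98.4% elsewhere. Since these markers made the classes, their levels describe the gate: the 8 fibroblast markers summed to 16940 and 16731 CPM in fibroblasts of the 2 libraries (CPM is the UMIs of a gene relative to all UMIs, on the usual depth-scaled counts scale). The 8 neutrophil markers summed to 483 CPM in the fibroblasts of the myeloid and stromal library. Mediastinal T cells stood apart, since the 8 B cell markers reached 960 CPM in them beside 2884 CPM of the 8 T cell markers. Levels below are CPM over all cells of a class, library and condition added up, called a sum, and sums of under 30 cells were not used. Macrophages, with 57 cells, were taken as 1 sum over their conditions.

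The promoters of the adaptor genes are shown because the adaptors were spread differently over the cell classes: Tirap was highest in neutrophils, Myd88 in neutrophils and fibroblasts, and Ticam1 in monocytes and macrophages. Sequences are RefSeq's for the C57BL/6J reference (GRCm38.p6), from 250 bases before to 50 bases after a start that RefSeq gives, written 5′ to 3′ on the strand of the gene. RefSeq lists 2 starts for Tirap, and the outer one is shown. The Myd88 and Tirap windows lie inside the bounds that GENCODE gives for these genes. Capitals mark matches on either strand to GAGGAA (the core bound by ETS factors such as PU.1), TGANTCA (AP-1) or GAAA, any 2 bases, GAAA (interferon response).
Tirap, chr9:35199916-35200215, minus strand: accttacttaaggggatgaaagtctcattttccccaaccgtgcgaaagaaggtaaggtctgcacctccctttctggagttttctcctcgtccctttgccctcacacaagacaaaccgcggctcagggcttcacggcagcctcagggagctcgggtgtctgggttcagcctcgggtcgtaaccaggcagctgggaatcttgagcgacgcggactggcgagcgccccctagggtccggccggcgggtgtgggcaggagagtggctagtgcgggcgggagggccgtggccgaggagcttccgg
Myd88, chr9:119339969-119340268, minus strand: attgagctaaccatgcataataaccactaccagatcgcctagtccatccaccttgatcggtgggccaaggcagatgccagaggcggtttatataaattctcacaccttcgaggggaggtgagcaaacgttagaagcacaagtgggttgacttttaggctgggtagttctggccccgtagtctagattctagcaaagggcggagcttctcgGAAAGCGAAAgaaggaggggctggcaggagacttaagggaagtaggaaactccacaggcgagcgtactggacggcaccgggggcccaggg
Ticam1, chr17:56276718-56277017, minus strand: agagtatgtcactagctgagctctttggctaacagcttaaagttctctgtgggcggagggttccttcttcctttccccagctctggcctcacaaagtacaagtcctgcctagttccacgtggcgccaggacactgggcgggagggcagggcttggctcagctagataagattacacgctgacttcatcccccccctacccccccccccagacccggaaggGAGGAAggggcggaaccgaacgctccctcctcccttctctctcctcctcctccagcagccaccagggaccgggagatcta
The Ticam1 window held 1 match to GAGGAA, a motif found in 28.3% of 32851 mouse promoters of the same length. The Myd88 window held 1 match to the interferon response motif, found in 3.44% of promoters, and the Tirap window held no match to these 3. TGANTCA, found in 7.81% of promoters, had no match in any of them. A loose NF-kB form, GGG and CC with any 5 bases between them, is in 50.8% of promoters and was not capitalised, with 2 matches in the Tirap window shown, 4 in the window of its other start, 0 in the Myd88 window and 1 in the Ticam1 window.

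By GENCODE's annotation of GRCm38, the assembly that the authors' mm10 names, the 9 genes are protein-coding and scattered. Tlr4 lies on chromosome 4 from 66827584 to 66930284, Ly96 on chromosome 1 from 16688051 to 16709611, and Lbp on chromosome 2 from 158306493 to 158332852. Tirap lies on chromosome 9 from 35184551 to 35200291, and Myd88 on the same chromosome from 119335934 to 119341411. Cd180 lies on chromosome 13 from 102693558 to 102739629, Ticam1 on chromosome 17 from 56269319 to 56276786, Cd14 on chromosome 18 from 36725067 to 36726798, and Ticam2 on chromosome 18 from 46557291 to 46574533.

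Tlr4 was found in myeloid cells, fibroblasts and endothelium and was low in lymphocytes. Neutrophils held 434 CPM (4T1), 628 (67NR) and 755 (naive), the highest of the 9 classes in each. Monocytes had 205, 189 and 152 CPM in those conditions and 75.9 CPM in the naive axillary atlas. Both myeloid classes lay above every fibroblast sum, except the 44 monocytes of the atlas. Macrophages had 80.6 CPM, and the 7 fibroblast sums ran from 62.8 through a median of 76.4 to 86.3 CPM. The 4 endothelial sums lay at 27.6 to 42.3 CPM, below every fibroblast sum. NK cells stood between stroma and other lymphocytes with 12.4 to 18.1 CPM, while dendritic cells had 0.577 to 10.7, B cells 3.71 to 7.55 and T cells 1.86 to 4.27 CPM, which overlap. These levels describe the classes and carry no test, since each class comes from 1 or a few libraries.

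Once every cell was thinned to 1000 UMIs, the share with a Tlr4 UMI kept the order of neutrophils, monocytes, fibroblasts and endothelium in the hashtagged libraries. Macrophages (5.45%, 3 of 55 cells) and atlas monocytes (4.55%, 2 of 44 cells) did not exceed either fibroblast share. In neutrophils the thinned share was 42.6%, against 78.7% before thinning, with 47 of 1865 cells too shallow to keep. Monocytes stood at 15.3% (69.2% unthinned), and fibroblasts at 7.39% in the myeloid and stromal library and 5.46% in the stromal library (50.2% and 49.0% unthinned). Endothelial cells had 3.94% (20.5% unthinned). T cells of the T cell library had 0.399% (4.59% unthinned) at a median depth of 10963 UMIs. Dendritic cells as a class, at 0.493% (6.14% unthinned), were close to that share, and the 1.67% of axillary NK cells lay above it. The T cell share is not a measured background, since T cells were not shown to lack Tlr4 and the libraries differ. Conventional type 2 dendritic cells had 6.06, 20.1 and 13.8 CPM of Tlr4 in 4T1, 67NR and naive nodes.

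Ly96, whose product is the part of the receptor that holds LPS, was spread more evenly than Tlr4. Endothelial cells had 72.5 (4T1), 76.0 (67NR), 55.7 (LPS) and 77.3 (naive) CPM. Dendritic cells had 59.1, 52.7 and 88.0 CPM in 4T1, 67NR and naive nodes and 50.2 CPM in the atlas, and the sums of neutrophils (47.7 to 64.6 CPM), monocytes (40.4 to 47.5 CPM) and macrophages (70.1 CPM) lay in or near the same range. Fibroblasts were lower than all of these, at 16.3 to 27.9 CPM with a median of 21.8. B cells had 5.45 to 22.4, T cells 5.87 to 11.2 and NK cells 1.28 to 3.72 CPM. Fibroblasts thus carried more Tlr4 than endothelium with less Ly96. Among dendritic cells, migratory cells had 93.5, 82.4 and 118 CPM of Ly96 and 3.06, 1.08 and 3.67 CPM of Tlr4 in 4T1, 67NR and naive nodes, and conventional type 2 cells had 16.2, 20.8 and 28.6 CPM of Ly96 and 6.06, 20.1 and 13.8 CPM of Tlr4 (9, 29 and 40 UMIs).

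Cd14, the surface protein that delivers LPS to the receptor, was a myeloid gene. It reached 5940, 5143 and 4101 CPM in neutrophils of 4T1, 67NR and naive nodes, and 1858 to 2404 CPM in the 4 monocyte sums. Macrophages had 1383 CPM, and dendritic cells had 245, 459 and 271 CPM in 4T1, 67NR and naive nodes and 40.4 CPM in the axillary atlas. No sum of any other class passed 58.4 CPM. Thinned to 1000 UMIs, 87.1% of neutrophils, 73.5% of monocytes, 49.1% of macrophages and 16.6% of dendritic cells held a Cd14 UMI. The share was 0 of 7020 cells in T cells of the T cell library, which allows up to 0.0525% (exact binomial 95% bound, counting error only).

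Fibroblasts of the 2 libraries differed in Cd14. It stood at 56.2, 51.1 and 58.4 CPM for 4T1, 67NR and naive in the library that also held neutrophils, and at 13.8, 12.7 and 8.69 CPM, with 16.3 CPM for LPS, in the stromal library. In the first library Cd14 in fibroblasts was 0.947%, 0.994% and 1.42% of the neutrophil level for 4T1, 67NR and naive, while Retnlg, a neutrophil gene, was 0.338%, 0.143% and 0.796% of its own. In the stromal library Retnlg had 0, 0, 1 and 0 UMIs in 4T1, 67NR, LPS and naive fibroblasts, beside 38, 120, 112 and 21 UMIs of Cd14. The part of free neutrophil RNA in the higher values was not tested.

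**Figure D1:**
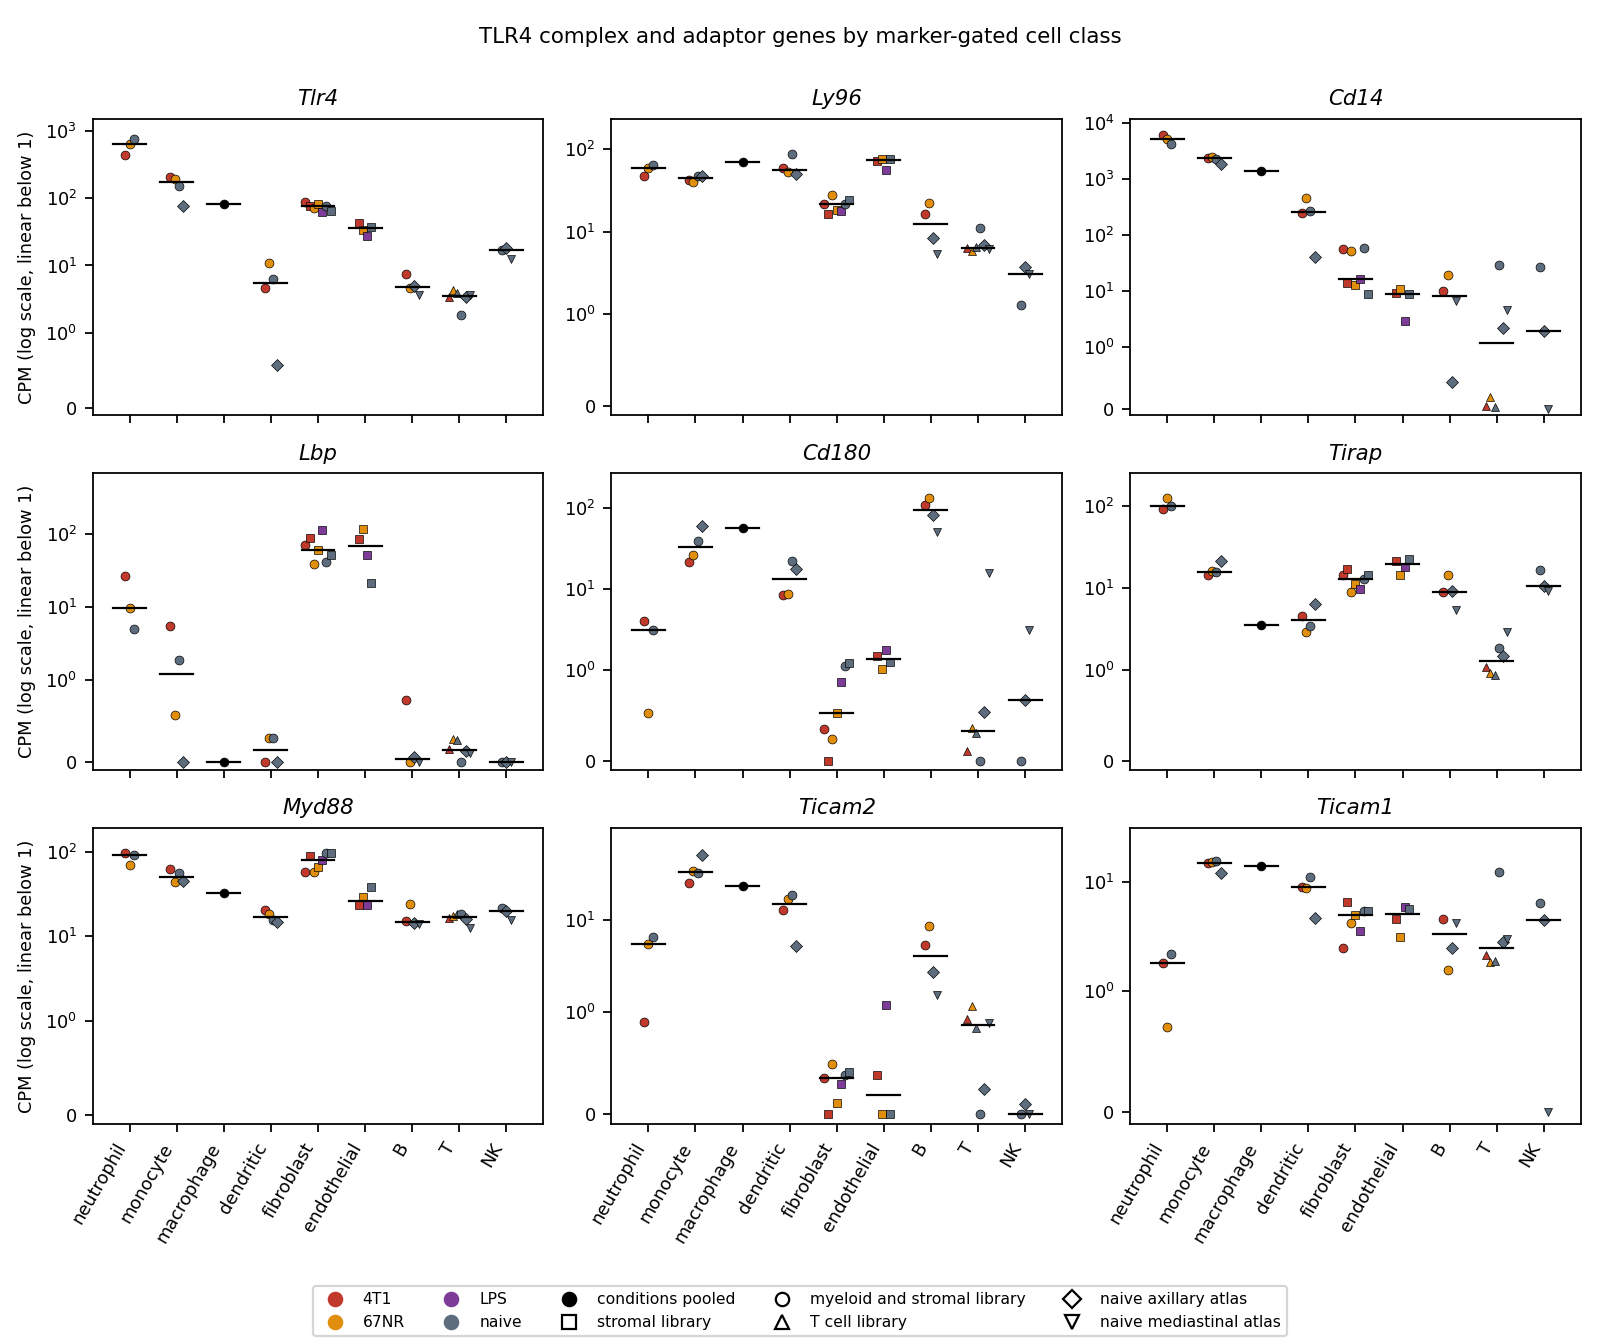
Level of the 9 genes by cell class, in CPM on an axis that is logarithmic above 1 and linear below it; each point is 1 sum of a class, library and condition (colour: condition, shape: library) and each bar the median of the sums. Neutrophils are highest for Tlr4 (434 to 755), Cd14 and Tirap, stromal cells for Lbp, monocytes for Ticam2 and Ticam1, and B cells for Cd180.

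Lbp was a stromal gene in these nodes. Its level ran from 38.6 through 59.8 to 112 CPM (lowest, median and highest) over the 7 fibroblast sums and from 21.4 to 116 CPM over the 4 endothelial sums, which overlap. Monocytes had at most 5.46 CPM, and dendritic cells, B cells, T cells, NK cells and macrophages at most 0.755 CPM. Neutrophils had 27, 9.80 and 4.97 CPM in 4T1, 67NR and naive nodes.

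Among the adaptors, Tirap, which brings MYD88 to the receptor at the membrane, was highest in neutrophils, with 91.8 CPM in 4T1 nodes, 128 in 67NR nodes and 101 in naive ones. Every other sum was at or below 22.6 CPM, among them endothelium at 14.5 to 22.6 and fibroblasts at 9.05 to 17.4 CPM. Myd88, the adaptor shared by most Toll-like receptors and the interleukin-1 receptors, was present in every class: neutrophils had 69.8 to 95.8, fibroblasts 58.0 to 96.6, monocytes 43.5 to 62.0, endothelium 23.4 to 38.3 and T cells 12.7 to 18.6 CPM.

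Ticam2 and Ticam1, the adaptors of the endosomal arm, had their highest class medians in monocytes. Ticam2 had 24.9, 34.1 and 31.9 CPM in monocytes of 4T1, 67NR and naive nodes and 49.8 CPM in the atlas. Macrophages had 23.4 CPM and dendritic cells as a class 5.19 to 18.5 CPM. Conventional type 2 dendritic cells reached monocyte levels, with 22.9, 32.5 and 45.9 CPM of Ticam2 in 4T1, 67NR and naive nodes. Their Ticam1 was 7.41, 11.8 and 14.5 CPM. Migratory dendritic cells had 6.99, 5.42 and 7.62 CPM of Ticam2. Neutrophils had 0.900 CPM in 4T1 (2 UMIs), 5.42 in 67NR (31 UMIs) and 6.52 in naive nodes (21 UMIs). Fibroblasts and endothelium had between 0 and 2 Ticam2 UMIs in each of their 11 sums, and the lowest upper bound on a sum, in 591 fibroblasts of 67NR nodes, was 0.589 CPM (exact Poisson 95%, counting error only). Ticam1 had 11.9 to 15.6 CPM in monocytes, 14.0 in macrophages, 4.62 to 11.1 in dendritic cells, 2.48 to 6.52 in fibroblasts and 3.11 to 5.86 in endothelium. Neutrophils had 1.80, 0.700 and 2.17 CPM (4, 4 and 7 UMIs) in 4T1, 67NR and naive nodes, the lowest median, in a range that overlaps the sums of T cells (from 1.85 CPM), B cells (from 1.55 CPM) and NK cells (from 0 CPM). The stromal classes thus held UMIs of Tlr4, Ly96, Myd88, Tirap and Ticam1 with Ticam2 at or near 0.

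Cd180 was highest in B cells, at 109 CPM in 4T1 and 134 CPM in 67NR nodes, 82.0 CPM in the axillary atlas and 50.6 CPM in the mediastinal atlas. Macrophages had 56.1, monocytes 21.7 to 59.3 and dendritic cells 8.52 to 22.1 CPM. Each of these classes overlapped the next in that order. Ly86, the partner that CD180 needs to reach the surface, was found in the same classes. It had 416 CPM in macrophages, 341 and 323 in monocytes of the 2 libraries that hold them, and 124 and 102 in dendritic cells there. B cells had 241 CPM (myeloid and stromal library), 320 (T cell library), 238 (axillary atlas) and 114 (mediastinal atlas), so they were not highest for Ly86. Endothelium had 0.3 CPM.

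Receptor parts met in single cells mainly among myeloid cells. Without thinning, Tlr4 and Ly96 were both seen in 36.0% of monocytes, 29.8% of macrophages, 16.8% of neutrophils, 12.6% and 11.0% of fibroblasts (myeloid and stromal library, stromal library), 9.72% of endothelial cells and 3.32% of dendritic cells, shares that follow depth. Thinned to 1000 UMIs, both were seen in 3.03% of neutrophils, where the product of the single shares was 2.56%, and in 0.855% of monocytes, where it was 0.671%. In the other classes at most 1 thinned cell held both, so no order can be read there.

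Genes with the most similar pattern were taken from Pearson's r of log2(CPM + 5) over the 19 sums of a library and class with conditions pooled, which share libraries and depths. The closest to Tlr4 were Sgms2 (r = 0.93), Saa3, Mindy1, Grina and Sqor. Cd14 was most like Il1rn (r = 0.98), Ccl6, Gpr35, Ptafr and Lst1, and Ly96 was most like Ralb (r = 0.92), Csf2rb2, Csf2rb, Tctex1d2 and Reep3. For Cd180 they were Ciita (r = 0.98), H2-DMb2, March1, Blnk and Ly86 (r = 0.94).

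Whether tumours changed these genes could be tested in fibroblasts alone, since no other class had 30 cells per condition in more than 1 hashtagged library. The test compared sums of 4T1, 67NR and naive in the 2 libraries that hold fibroblasts, with the library as a block (edgeR, 12096 genes, 2 residual degrees of freedom). With the library as a block, its p-values weigh a difference against how far condition differences varied between the 2 libraries. edgeR moderates this spread towards a value shared over genes. A p-value thus also rests on the variance of other genes, beyond the 2 degrees of freedom of its own gene. Nothing says that the libraries came from separate mice, so the p-values do not measure a spread between mice. Of the 9 genes, 7 passed the filter on low counts and Ticam2 and Cd180 did not.

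Lbp rose in fibroblasts of 4T1 nodes. It had 87.7 and 70.0 CPM in 4T1 fibroblasts and 51.7 and 41.2 CPM in naive fibroblasts (stromal library, then myeloid and stromal library), so the groups did not overlap. The log2 change was 0.80 ± 0.16 (SE; edgeR adjusted p = 0.0476), higher in 2 of 2 libraries, and Lbp was the only 1 of the 7 tested that was called, where 1.52% of all genes tested were called and 0.984% were called higher. The call is close to the threshold: DESeq2 gave an adjusted p of 0.144. With edgeR, a limit of 5% mitochondrial UMIs gave an adjusted p of 0.0717 and a stricter hashtag call 0.404. Without the clusters that had Smpd3 or Mrgprg among their leading genes, described below, edgeR gave 1.12 with an adjusted p of 0.0225. In 67NR fibroblasts Lbp had 59.8 and 38.6 CPM, a log2 change over naive of 0.10 ± 0.16 (edgeR adjusted p = 0.802). The direct difference, 4T1 over 67NR, was 0.70 ± 0.15 with an edgeR adjusted p of 0.687.

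The other tested genes did not pass in either tumour. Tlr4 had 77.2 and 86.3 CPM in 4T1 fibroblasts, 82.3 and 71.7 in 67NR fibroblasts and 63.3 and 76.4 in naive fibroblasts (stromal library first). Its log2 change was 0.27 ± 0.16 in 4T1 (edgeR adjusted p = 0.466) and 0.18 ± 0.16 in 67NR (edgeR adjusted p = 0.601). Myd88 had 89.1 and 58.0 CPM in 4T1, 65.8 and 58.4 in 67NR and 96.4 and 96.6 in naive fibroblasts, and its log2 change in 67NR, -0.61 ± 0.16, came nearest to the threshold (edgeR adjusted p = 0.0800). Over 67NR and naive, 0 of 7 were called where 3.63% of all genes were (2.43% higher), and 1 of the 7, Myd88, had an unadjusted p under 0.05. Over 4T1 and 67NR, 0 of 7 and 0.0% of all genes were called with edgeR, while 2 of the 7 and 489 of 12096 genes had an unadjusted p under 0.05 and DESeq2 called 2 genes in all.

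**Figure D2:**
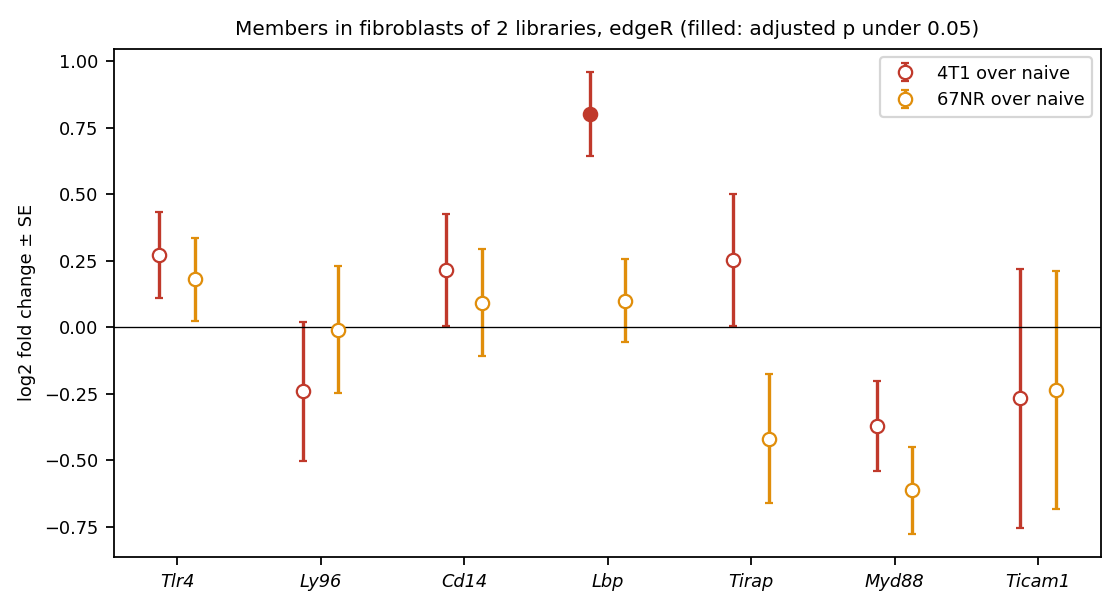
Log2 fold change with its standard error of the 7 tested genes in fibroblasts, 4T1 over naive and 67NR over naive, from sums of 2 libraries; a filled point has an adjusted p under 0.05. Lbp in 4T1, at 0.80, is the filled point, and the 67NR value of Myd88 lies lowest at -0.61; both contrasts use the same naive sums.

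Tlr4 and Ly96 divided the kinds of fibroblast, with pooled cluster levels of 17.1 to 115 CPM for Tlr4 and 8.5 to 52.1 CPM for Ly96. In the myeloid and stromal library the cluster led by Smpd3 had 103 CPM of Tlr4 and 12.3 of Ly96, the cluster led by Apod 56.0 and 27.7, and the cluster led by Ccl21a and Ccl19, chemokines of the T cell zone reticular cells, 54.7 and 52.1. In the stromal library the clusters led by Mrgprg (115 and 12.1 CPM) and by Pcolce2 and Dpp4 (107 and 12.7 CPM) were high in Tlr4 and low in Ly96. The cluster led by Dsc3 and Grem1 had 37.2 CPM of Tlr4 and 41.3 of Ly96. Cd14 also differed, with 2.1 CPM in the Mrgprg cluster, 55.9 in the Dsc3 cluster and 106 in the Ccl21a cluster.

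The mix of these clusters differed between conditions. The clusters led by Smpd3 or Mrgprg held 95 of 169 fibroblasts in 4T1, 96 of 239 in 67NR and 47 of 178 in naive nodes of the myeloid and stromal library, and 37 of 160, 245 of 591, 9 of 396 and 9 of 190 in 4T1, 67NR, LPS and naive nodes of the stromal library. Both tumours had a larger share than naive nodes in both libraries, while Tlr4 in 67NR was above naive in the stromal library and below it in the other. Without them the log2 change of Tlr4 was -0.13 in 4T1 and -0.09 in 67NR over naive, the opposite sign of the values above, and neither passed (edgeR adjusted p = 0.837 and 0.881). Leaving them out was chosen after the data were seen.

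**Figure D3:**
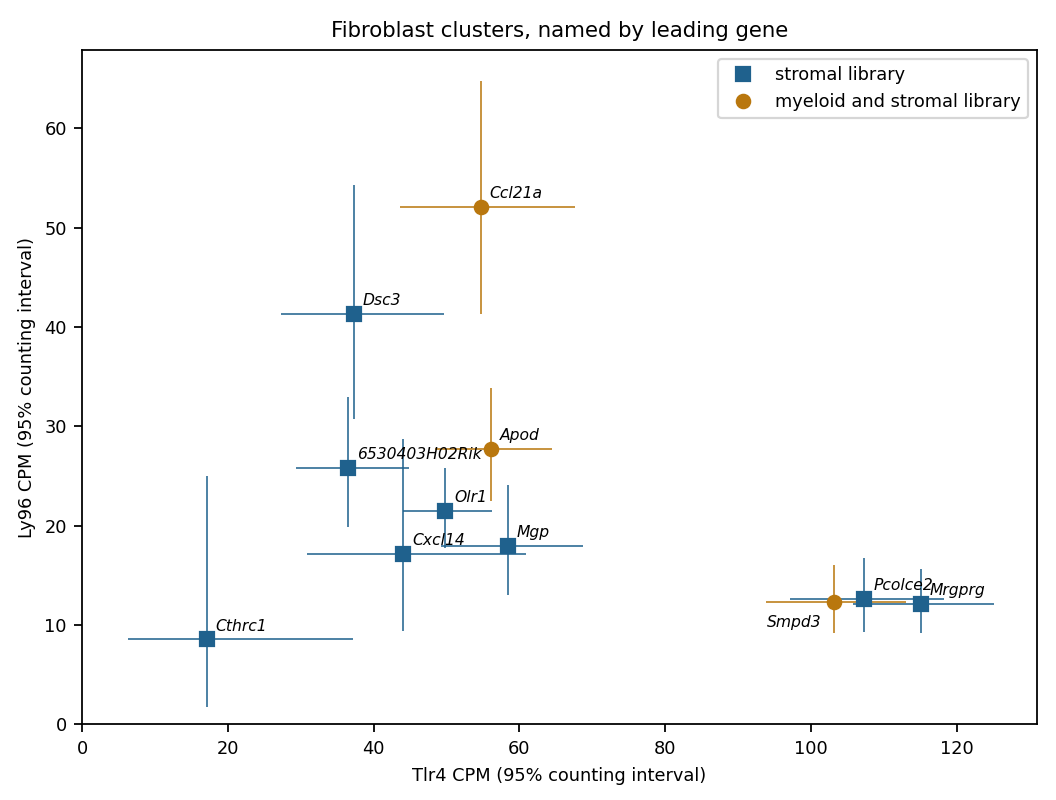
Level of Tlr4 (horizontal) and Ly96 (vertical) in CPM in fibroblast clusters of the stromal library (squares) and the myeloid and stromal library (circles), conditions pooled, with exact 95% counting intervals and the leading gene of each cluster. Clusters led by Smpd3, Pcolce2 and Mrgprg lie at 103 to 115 for Tlr4 and near 12 for Ly96, and those led by Ccl21a and Dsc3 at 37.2 to 54.7 and 41.3 to 52.1.

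In LPS nodes, taken 72 hours after injection, Lbp was the member that differed most from naive among those with at least 50 UMIs. Fibroblasts held 112 CPM of Lbp in LPS nodes (770 UMIs) and 51.7 CPM in naive nodes (125 UMIs), a log2 ratio of 1.12 (0.84 to 1.40). Here and in all comparisons below there is 1 sum per condition, the bracket is an exact conditional 95% interval for counting error, and nothing was tested. Of the 6 members with at least 50 UMIs, Lbp was the 1 past 2-fold, where 2.38% of all genes were. Cd14 had 16.3 CPM in LPS and 8.69 in naive fibroblasts (0.91, 0.23 to 1.66), while Tlr4 stood at 62.8 and 63.3 CPM, Ly96 at 17.9 and 24.4 and Myd88 at 79.9 and 96.4 CPM. The Pcolce2 cluster made up 36.4% of LPS fibroblasts and 16.8% of naive ones, and within it Lbp was 163 CPM in LPS and 101 CPM in naive nodes. In the Olr1 cluster Lbp was 67.5 and 42.4 CPM.

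In endothelium Lbp was higher in every treated condition than in naive nodes. It had 85.4 CPM in 4T1 (226 UMIs), 116 in 67NR (336 UMIs), 51.6 in LPS (88 UMIs) and 21.4 in naive nodes (34 UMIs). The log2 ratios over naive were 2.00 (1.47 to 2.56) for 4T1, 2.44 (1.93 to 3.00) for 67NR and 1.27 (0.69 to 1.89) for LPS. In each of these 3 comparisons Lbp was the single member past 2-fold, where 1.99%, 3.08% and 2.56% of all genes were. The 3 comparisons share the naive sum.

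This Lbp came mostly from lymphatic endothelium, told by its own markers such as Prox1 and Flt4. Lymphatic cells held 254 CPM in 4T1 (43 cells), 338 in 67NR (57 cells), 189 in LPS (27 cells) and 85.1 in naive nodes (21 cells), with intervals of 220 to 291, 302 to 377, 148 to 239 and 55.1 to 126. The LPS and naive sums are under the minimum of 30 cells. Blood endothelial cells had 13.5, 7.72, 12.8 and 6.93 CPM in the same conditions. Lymphatic cells were 20%, 23.2%, 17.3% and 12% of the endothelial cells of 4T1, 67NR, LPS and naive nodes. Their share and their pooled level thus both differed. Within the endothelium 1 cluster, led by the lymphatic genes Stab2, Mmrn1 and Ackr4, had 496 CPM of Lbp (456 to 539), against 0 to 36.1 CPM in the other 7 clusters. That Stab2 cluster held 21, 39, 16 and 9 cells in 4T1, 67NR, LPS and naive nodes. The cluster led by Ccl20 and Coch held 23, 31, 8 and 17. These counts take in all cells of a cluster, whether or not they met the endothelial class. The Ccl20 cluster held 79 cells in all, while 48 cells of the endothelial class lay in clusters without a class name. The counts are therefore not the mix behind the pooled lymphatic level, and the part of cluster mix in that level was not tested.

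Neither Tlr4 nor Ly96 was highest in the Stab2 cluster. Lymphatic cells as a whole had 63.1 and 31.6 CPM of Tlr4 in 4T1 and 67NR nodes, and blood endothelial cells 33.4 and 34.0 CPM. The Stab2 cluster had 1.77 CPM of Tlr4 (2 UMIs), and the cluster led by Ccl20 and Coch had 98.5 CPM (79.2 to 121). Ly96 was highest, at 149 CPM (133 to 167), in the cluster led by Hamp, Selp and Glycam1, the last a ligand of L-selectin made by high endothelial venules. Between conditions, endothelial Myd88 was 23.4 CPM in 4T1, 29.4 in 67NR, 23.5 in LPS and 38.3 in naive nodes, and Tlr4 was 42.3, 33.2, 27.6 and 37.7 CPM.

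**Figure D4:**
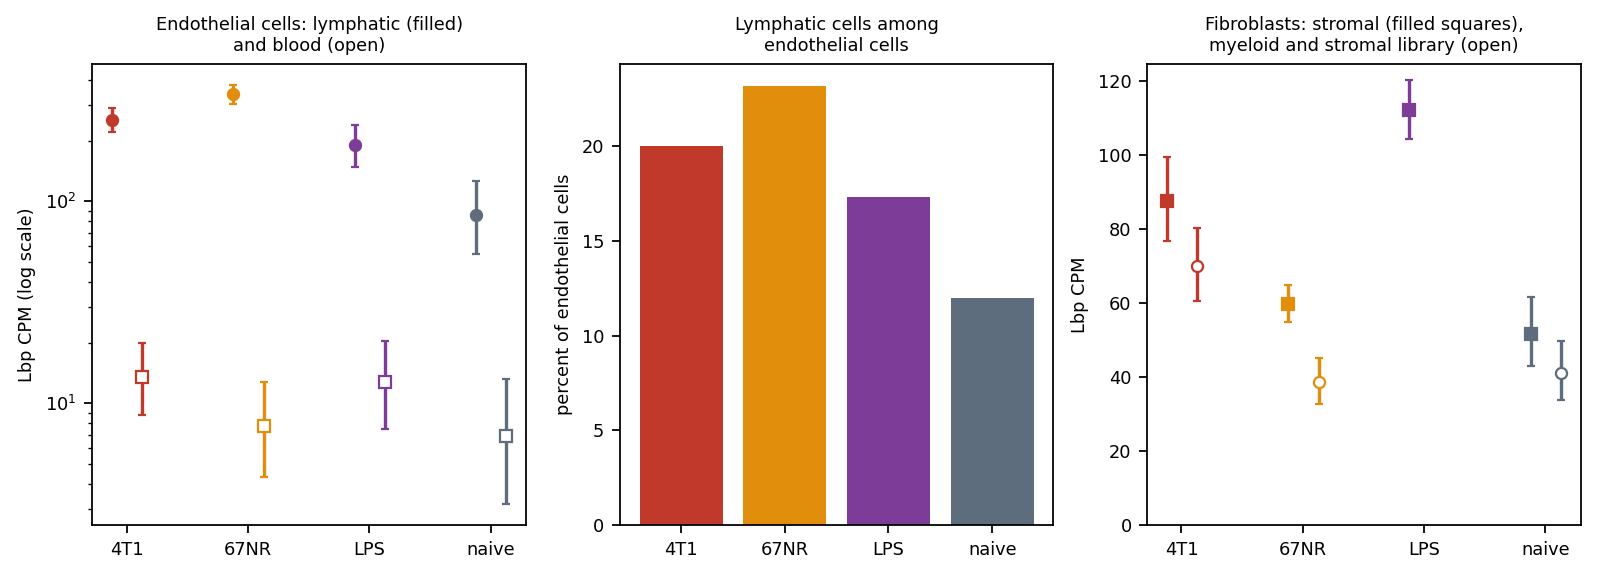
Lbp by condition in CPM with exact 95% counting intervals: left, lymphatic (filled) and blood (open) endothelial cells on a log axis; middle, lymphatic cells as a percent of endothelial cells; right, fibroblasts of the stromal library (filled) and the myeloid and stromal library (open). Lymphatic cells lie at 254, 338, 189 and 85.1 in 4T1, 67NR, LPS and naive nodes, and fibroblasts are highest in LPS at 112.

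Neutrophils of 4T1 nodes had lower Tlr4 and higher Cd14 levels than naive ones. Tlr4 was 434 CPM in 4T1 nodes, 628 in 67NR nodes and 755 in naive ones, log2 ratios over naive of -0.80 (-0.91 to -0.69) and -0.26. Cd14 was 5940, 5143 and 4101 CPM, log2 ratios of 0.53 and 0.33. The median gene stood at -0.15 in 4T1 and -0.34 in 67NR, so relative to it Tlr4 in 67NR was not low. Thinned shares with a Tlr4 UMI were 32.5%, 43.1% and 46.0% of cells in 4T1, 67NR and naive nodes. Of 6 members with enough UMIs, 1 was past 2-fold in 4T1, namely Lbp, and 0 in 67NR, where 15.2% and 14.8% of all genes were. Median depth in neutrophils was 6118, 5330 and 3553 UMIs and the mitochondrial share 0.489%, 0.227% and 0.203% in 4T1, 67NR and naive nodes. Their part in the result was not tested.

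Different neutrophil clusters dominated each condition. The cluster led by Saa3 and Stfa2 held 64.9%, 5.5% and 0.7% of neutrophils in 4T1, 67NR and naive nodes, and had 515 CPM of Tlr4 in 4T1 and 790 CPM in 67NR. The cluster led by Camp and Ngp, granule genes of immature neutrophils, held 10.0%, 16.8% and 2.7% and had 318 CPM of Tlr4 in 67NR. Where both 67NR and naive cells were numerous, Tlr4 was close or higher in 67NR: 719 and 731 CPM in the Cstdc4 cluster, 878 and 930 in the Rsad2 cluster and 1016 and 875 in the 4732465J04Rik cluster. Cd14 was higher in 67NR than in naive cells of all 3, with 5921 against 4447, 5159 against 4185 and 6488 against 4886 CPM.

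**Figure D5:**
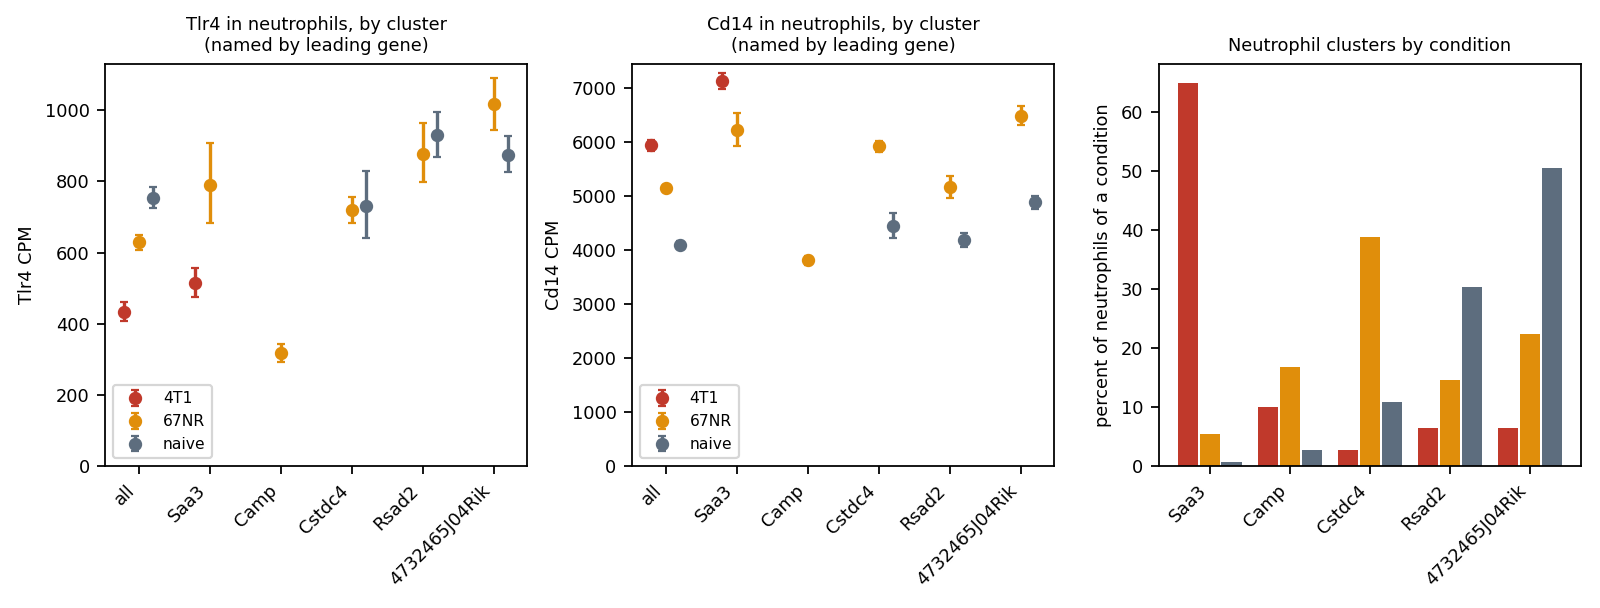
Neutrophils of the myeloid and stromal library: level of Tlr4 (left) and Cd14 (middle) in CPM, over all neutrophils and by cluster, with exact 95% counting intervals, and the share of each condition's neutrophils in each cluster (right); clusters carry the name of their leading gene, and values are drawn where a condition had at least 30 cells. Over all neutrophils Tlr4 is 434 in 4T1 nodes, 628 in 67NR nodes and 755 in naive ones, and the Saa3 cluster holds 64.9% of 4T1 neutrophils.

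Of the 6 members measured on enough UMIs in neutrophils, Lbp had the largest ratio. It had 60 UMIs in 4T1 (27 CPM), 56 in 67NR (9.80 CPM) and 16 in naive neutrophils (4.97 CPM), with log2 ratios over naive of 2.44 (1.63 to 3.34) and 0.98, and the UMIs lay in 31 of 291, 31 of 838 and 7 of 736 cells. Those levels were 38.5%, 25.4% and 12.1% of the fibroblast level of the same condition, while Col1a2, a collagen gene of fibroblasts, reached 0.539%, 0.453% and 0.747% and Dcn 0.606%, 0.364% and 0.416% of theirs. The Camp cluster held 96 of the 132 Lbp UMIs, at 34.5 CPM. Monocytes had 54, 2 and 5 Lbp UMIs in 4T1, 67NR and naive nodes, and in 4T1 they stood past 2-fold over naive (1.52, 0.21 to 3.20).

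Monocytes of tumour nodes had more Tlr4 and less Cd180 than naive ones, by under 2-fold. Tlr4 was 205 CPM in 4T1 nodes, 189 in 67NR nodes and 152 in naive ones, log2 ratios over naive of 0.43 (0.28 to 0.59) and 0.31 (0.13 to 0.50). Cd180 was 21.7, 26.1 and 39.5 CPM, log2 ratios of -0.87 and -0.60. Cd14 differed little, at 2334, 2404 and 2275 CPM. Of the members with enough UMIs, 1 of 9 was past 2-fold in 4T1, namely Lbp, and 0 of 8 in 67NR, where 5.86% and 2.84% of all genes were. Within the Vcan cluster Tlr4 was 293, 309 and 208 CPM and within the Ly6i cluster 120, 98.9 and 94.9 CPM for 4T1, 67NR and naive. Both tumours were thus above naive in the Vcan cluster, while in the Ly6i cluster 67NR was close to naive. The Vcan cluster made up 40.2% of 4T1, 34.7% of 67NR and 21.6% of naive monocytes. Cd180 within the Ly6i cluster was 19.8, 21.9 and 35.5 CPM and within the Vcan cluster 19.9, 22.3 and 29.0 CPM.

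Dendritic cells of tumour nodes had less Cd180 and less Ly96 than naive ones of the same library. Cd180 was 8.52 CPM in 4T1 (35 UMIs), 8.69 in 67NR (30 UMIs) and 22.1 in naive nodes (233 UMIs), log2 ratios of -1.38 (-1.93 to -0.86) and -1.35 (-1.95 to -0.80). It was the 1 of 7 members past 2-fold in each tumour, where 4.69% and 4.46% of all genes were. The difference was found within conventional type 2 cells, at 18.9, 18.7 and 55.5 CPM, and within the cluster led by Cd209d, at 15.2, 12 and 60.5 CPM, in 4T1, 67NR and naive nodes. Ly96 was 59.1, 52.7 and 88.0 CPM over all dendritic cells and also lower in tumours in the migratory ones, which numbered 101, 82 and 347 cells. The naive dendritic cells of the axillary atlas, a separate library, had 50.2 CPM of Ly96, below both tumour sums. Cd14 differed between the tumours in opposite directions in the subsets. Type 2 cells had 374 CPM in 4T1 nodes, 942 in 67NR nodes and 614 in naive ones (4T1 over 67NR -1.33, -1.48 to -1.19), and migratory cells had 158, 95.5 and 136 CPM (0.73, 0.47 to 1.00).

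Over all hashtagged comparisons of a whole class within 1 library, 11 member ratios were past 2-fold, and 9 of them were Lbp and 2 were Cd180. Between the tumours they were Lbp in neutrophils (4T1 over 67NR 1.46, 0.91 to 2.01, with 9.84% of all genes past 2-fold) and in monocytes (3.25, 1.33 to 6.34, with 2.75%), while 0 of 4 were in dendritic cells, 0 of 5 in endothelium and 0 of 4 in T cells, where 2.27%, 0.985% and 0.544% of all genes were. Against LPS, Lbp in endothelium of 67NR nodes was the other one (1.17, 0.83 to 1.53, with 3.08%), and 0 of 5 were past 2-fold in endothelium of 4T1 nodes (2.75%). In fibroblasts taken 1 library at a time, no member was past 2-fold in the remaining pairs. The background there was 4.39% (4T1 over naive), 6.63% (67NR over naive), 2.46% (4T1 over 67NR), 3.1% (4T1 over LPS) and 4.97% (67NR over LPS) in the stromal library, and 6.86%, 5.31% and 1.75% for the first 3 of these pairs in the myeloid and stromal library. Within conventional type 2 dendritic cells, a subset not counted here, Cd14 (4T1 over 67NR) and Cd180 (both tumours over naive) were past 2-fold too. So was Ticam2, at 22.9 CPM in 4T1 and 45.9 CPM in naive nodes, close to the limit. This subset held 55, 62 and 122 cells in 4T1, 67NR and naive nodes. The share of all its genes past 2-fold was not determined, so these ratios have no background to stand against.

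T cells of the T cell library had 0 of 4 members with enough UMIs past 2-fold in 4T1 or in 67NR over naive, where 1.02% and 1.22% of all genes were. Tlr4 had 3.37, 4.27 and 3.87 CPM in T cells of 4T1, 67NR and naive nodes, and Myd88 16.4, 17.2 and 18.2 CPM. B cells could be compared between tumours only, and the 1 member with enough UMIs there, Cd180, was not past 2-fold (1.32% of all genes were). Between the naive atlases, axillary B cells had 82.0 CPM of Cd180 and mediastinal ones 50.6 (0.70). The B cell genes Cd79a (2084 and 904 CPM) and Ms4a1 (949 and 442 CPM) were lower in mediastinal B cells too. Of the 1617 mediastinal cells gated as B cells, 274 lay in B cell clusters, 638 in T cell clusters and 705 in unnamed clusters. The part of mixed cells in the Cd180 difference was not tested. In B cells 0 of 5 members and in NK cells 0 of 3 were past 2-fold, where 9.34% and 5.78% of all genes were. Cd180 in T cells was 0.539 CPM in the axillary and 15.9 in the mediastinal atlas, and the B cell genes Cd79a and Ms4a1 moved with it: in mediastinal T cells they stood at 51.4% and 24.2% of the B cell level, beside 31.4% for Cd180, and in axillary T cells at 0.303% and 0.306%, beside 0.658%. Cd180 and Cd14 (2.14 CPM in axillary and 4.63 in mediastinal T cells) were the 2 of 7 members past 2-fold there, where 16.6% of all genes were.

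The genes around the receptor were described from 8 lists, whose counts of called genes in fibroblasts stand against 1.52% of all tested genes in 4T1 and 3.63% in 67NR. In fibroblasts, edgeR called 0 of 19 kinases and factors downstream of TLR4 in 4T1, and in 67NR called Nfkb1, an NF-kB subunit, higher (0.90 ± 0.15, adjusted p = 0.0146) and Ripk1, a kinase at the branch to cell death, lower (-0.73 ± 0.14, adjusted p = 0.0281). None of 8 brakes, 6 chaperones and partners or 3 other Toll-like receptors was called in either tumour. Among 9 other genes of LPS binding or clearance, 0 were called in 4T1 and 2 in 67NR, both lower, the guanylate-binding proteins Gbp2 (-0.95, edgeR adjusted p = 0.0322) and Gbp7 (-0.71, edgeR adjusted p = 0.0382).

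Some matrix proteins that are described as endogenous ligands of TLR4 rose in tumour fibroblasts. Of 8 such genes tested, edgeR called 2 in 4T1, Tnc (3.00 ± 0.49, adjusted p = 0.0295) and Vcan (1.55 ± 0.21, adjusted p = 0.0197), and, where 3.63% of all genes were called against 1.52% in 4T1, 3 in 67NR, Tnc (3.72 ± 0.48), Vcan (1.34 ± 0.20) and Fn1 (1.71 ± 0.28), with adjusted p of 0.00830, 0.0128 and 0.0147. S100a8 and S100a9, also on the list, were lower without being called. Their log2 changes were -0.91 and -0.83 in 4T1 and -0.50 and -0.51 in 67NR (edgeR adjusted p from 0.0728 to 0.381). Naive fibroblasts of the stromal library held few UMIs of either gene, as given below. In the library that also held neutrophils, fibroblast S100a8 was 0.145%, 0.165% and 0.808% of the neutrophil level in 4T1, 67NR and naive nodes. The neutrophil gene Retnlg was at 0.338%, 0.143% and 0.796% of its own. The part of free neutrophil RNA in these changes was not tested. The list medians were 0.30 in 4T1 and 0.19 in 67NR, where the median of all genes was 0.00 and -0.01.

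A few targets of each arm were called in fibroblasts. Of 9 targets named for the MyD88 arm, edgeR called 2 higher in 4T1 and the same 2 in 67NR: the cytokine Il6 (1.04 ± 0.15 in 4T1, 0.99 ± 0.15 in 67NR; adjusted p = 0.0222 and 0.0124) and the neutrophil attractant Cxcl2 (1.63 ± 0.23 in 4T1, 2.17 ± 0.23 in 67NR; adjusted p = 0.0211 and 0.00578). Of 9 targets named for the TRIF arm, it called none higher, Cxcl10 lower in 4T1 (-0.93 ± 0.17, adjusted p = 0.0424), and Cxcl10, Oasl1 and Ifit1 lower in 67NR (-1.24, -1.78 and -1.57, adjusted p = 0.00988, 0.0366 and 0.0253). The list medians were 0.08 in 4T1 and -0.04 in 67NR for the MyD88 arm and -0.93 and -1.24 for the TRIF arm, where the medians of all genes were 0.00 and -0.01, and both contrasts use the same naive sums. Interferon and NF-kB signals other than TLR4 drive the same targets.

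Several TRIF-arm targets were past 2-fold higher in LPS nodes. In endothelium, where 2.56% of all genes were past 2-fold and the median gene stood at 0.02, 6 of 9 measured TRIF-arm targets were past 2-fold higher in LPS than in naive nodes, with a list median of 1.23, led by Ccl5 (55.7 and 3.14 CPM, log2 ratio 4.15) and Ifit2 (86.8 and 28.9 CPM, 1.59), and 0 of 5 MyD88-arm targets were. In fibroblasts, where 2.38% of all genes were past 2-fold, 3 of 9 TRIF-arm targets were higher, led by Rsad2 (23.3 and 3.31 CPM, 2.81), and 3 of 8 MyD88-arm targets, led by Saa3 (232 and 0.828 CPM, 1593 and 2 UMIs, 8.13) and Lcn2 (79 and 1 UMIs, 4.80). Irf7, a factor of the interferon response, had 137 CPM in LPS and 34.8 in naive fibroblasts and 365 and 134 CPM in endothelium. S100a9 and S100a8, endogenous ligands that neutrophils make in quantity, also had 467 and 146 UMIs in LPS fibroblasts and 1 and 4 in naive ones, while neutrophil Retnlg had 1 and 0 UMIs there.

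Most TRIF-arm targets were past 2-fold lower in neutrophils of both tumours and in monocytes of 67NR nodes, with 1 sum per condition and no test. In neutrophils, where 15.2% of all genes were past 2-fold in 4T1 and 14.8% in 67NR and the median gene stood at -0.15 and -0.34, 6 of 8 measured targets were past 2-fold lower in each, with list medians of -1.52 and -1.13. Ifit2 there had 13 CPM in 4T1 nodes, 22.9 in 67NR nodes and 81.7 in naive ones. In monocytes 2 of 9 were past 2-fold lower in 4T1 and 7 of 9 in 67NR, where 5.86% and 2.84% of all genes were past 2-fold, with list medians of -0.73 and -1.58 and all-gene medians of 0.03 and 0.02. In dendritic cells 0 of 7 were in 4T1 and 2 of 7 in 67NR, where 4.69% and 4.46% of all genes were past 2-fold. The neutrophil cluster led by Rsad2 held 19, 126 and 229 cells in 4T1, 67NR and naive nodes, beside 291, 838 and 736 neutrophils. A monocyte cluster led by Ifit2 held 65, 26 and 69 cells, beside 458, 190 and 171 monocytes. Both clusters are led by TRIF-arm targets, and the part of cluster mix in these ratios was not tested. Saa3 differed between the tumours, at 2076 CPM in 4T1, 37.8 in 67NR and 79.2 in naive neutrophils, and at 363, 3.44 and 88.1 CPM in monocytes.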

How the data were processed

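Lymph node cells were captured in droplets (10x Genomics 3' kit v3.1). The authors deposited UMI counts, unnormalised, per barcode and gene or antibody. Cell Ranger 7.0 and mm10 are named per the submitters' processing notes. How cells were called, introns treated and genes annotated is not given in the sources used here, and with whole-cell 3' counts, reads of overlapping or antisense genes may be split between them.

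Cells needed at least 500 UMIs, 250 genes and at most 10% mitochondrial UMIs. A hashtag was called at 10 or more counts and 3 times the next, and 7.3%, 17.1% and 7.0% of cells in the stromal, myeloid and stromal, and T cell libraries were dropped for want of a single one. In the atlases no doublet caller was run. A cell joined a class with at least 3 of its markers and other lineages at no more than 2/3 of that share (0.8 within myeloid cells). These limits were set on the data. Clusters (scanpy 1.11.5, leidenalg 0.10.2, resolution 1) left out the 9 genes, so that a cluster describes them without having used them. No hashtag names poly(I:C), which was not analysed here.

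UMIs were summed per class, library and condition. Fibroblast sums entered the quasi-likelihood test of edgeR 4.0.16 (glmQLFit, glmQLFTest, filterByExpr, TMM, R 4.3.3), with library as a block because hashtagged conditions went through each library jointly, per the labels. Benjamini-Hochberg adjusted p under 0.05 counted as called. The biological coefficient of variation was 0.135. A simulation of that comparison for 4T1 and naive, run on 11830 genes, gave 75% recovery at a log2 change of 1, 100% at 2, and 10 false calls. DESeq2 1.42.0 was the other tool. Other comparisons are log2 ratios of CPM with exact conditional intervals (scipy 1.17.1), and a gene counted as past 2-fold with at least 50 UMIs in the higher sum and an interval excluding 0. On simulated monocyte sums (4T1 over naive, 9120 genes) 95.5% of intervals held an unchanged ratio. Intervals cover counting error only.

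The 9 genes, the markers and the 8 lists were chosen with earlier results of these data known. Genes were named by rule: the 9 throughout, every listed gene that edgeR called, otherwise the 2 of a list with the largest ratio, and for likeness the 5 highest correlations. Irf7, Saa3 in myeloid cells, Ifit2 in neutrophils, Ly86 and the genes used to check for free RNA were named beyond it or after their values were seen. A comparison between B cell clusters is not reported here.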

Additional observations from a re-analysis of the deposited data

Results flagged for a closer look

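Of 46 groups of 4 to 10 sums, 5 had a sum that lay far from its nearest neighbour against the range of the group, where chance gives about 1 in 20. Of the 6 T cell sums, the 94 naive T cells of the myeloid and stromal library were highest for Cd14 (28.9 CPM, 31 UMIs), Ly96 (11.2 CPM, 12 UMIs) and Ticam1 (12.1 CPM, 13 UMIs). In the same cells Cd14 stood at 0.705% of its neutrophil level, beside 0.988% for Retnlg and 0.417% for S100a8. Cd180 was highest in mediastinal T cells (15.9 CPM), which also held B cell markers. Myd88 in the 84 B cells of 67NR nodes, at 24.0 CPM (31 UMIs), was the highest of 4 B cell sums.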

How the results depend on the processing

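Comparisons other than the fibroblast test rest on 1 sum per condition, that test on 2 libraries, and lymphatic endothelium on 21 to 57 cells per condition, so small differences in genes with few UMIs (Ticam1, Ticam2, Cd180 in stroma) were not detectable. Of the values for single genes, 1573 kept their direction and their side of the threshold or stayed within the spread, 32 lost and 27 gained the threshold, 64 moved beyond the spread and 27 changed sign. The block is the library: without the replicate block edgeR called 0 genes in 4T1 and 0 in 67NR over naive, against 184 and 439 with it, 0 members, and Cd14 (-0.073) and Ly96 (0.011) in 67NR changed sign. Genes called in 4T1 over naive were 967 with no gene filter, 75 at 5% mitochondrial UMIs and 17 at a hashtag ratio of 10, in 67NR over naive 1294 with no filter, 57 at that ratio and 253 without the Smpd3 and Mrgprg clusters (chosen after seeing the data), and in 4T1 over 67NR 0, or 98 with no filter, 7 with classes from clusters, 2 with DESeq2 and 2 without those clusters. Members called in 4T1 over naive were 0 in place of 1 with DESeq2, at 5% mitochondrial UMIs, at that ratio and with 1 marker more, and 1 in place of 0 with no filter in 67NR over naive and in 4T1 over 67NR. Over its alternatives the Lbp change in 4T1 over naive ran from 0.66 to 1.12, with edgeR or DESeq2 adjusted p from 0.000613 to 0.445. Members past 2-fold were 7 in place of 11 at the hashtag ratio of 10, and monocytes with Tlr4, Ly96 and Cd14 were 1.60% in place of 0.733% when thinned to 2000 UMIs.

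Other signs that turned in fibroblasts were Ly96 in 4T1 over naive (0.037 at the hashtag ratio, 0.19 without those clusters), Ly96 in 67NR over naive (0.0049 with DESeq2, 0.043 with no filter, 0.14 at the ratio, 0.069 with classes from clusters, 0.54 without those clusters), Tlr4 in 4T1 (-0.13 without those clusters) and in 67NR over naive (-0.29 at the ratio, -0.091 without those clusters), Tlr4 in 4T1 over 67NR (-0.034 without those clusters), Ticam1 in 4T1 over 67NR (0.083 at 5% mitochondrial UMIs, 0.16 with classes from clusters, 0.10 without those clusters) and Cd14 in 4T1 over 67NR (-0.016 at the ratio, -0.083 with classes from clusters). Within 1 library, Tlr4 in 67NR over LPS was -0.015 and Myd88 0.083 at the ratio, and without those clusters Tlr4 was -0.088 in 67NR over naive, -0.064 in 4T1 over LPS, -0.094 in 67NR over LPS and -0.11 in 4T1 over 67NR, and Myd88 0.21 in 67NR over LPS. With classes from clusters Cd14 in monocytes was 0.034 in 4T1 over 67NR and Tlr4 in dendritic cells -0.98 in 67NR over naive. Leaving out a library gave Tlr4 -0.09 to 0.38 and Ly96 -0.42 to 0.36 in 67NR over naive, and Myd88 -0.74 to -0.11 and Ticam1 -1.11 to 0.28 in 4T1 over naive. Except where a setting removes cells, genes or libraries by construction, the cause was not tested.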

Other observations

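Other receptors and LPS-handling genes were distributed differently from Tlr4. Tlr2, the receptor for bacterial lipopeptides, had 210 CPM in neutrophils, 144 in monocytes of the myeloid and stromal library and 290 in those of the axillary atlas, and 121 in macrophages. Tlr13, which senses bacterial ribosomal RNA in mice, reached 64.8 CPM in neutrophils, and Tlr3, a sensor of double-stranded RNA, 37.1 CPM in endothelium. Casp4, the mouse caspase that binds LPS in the cytosol, was 340 and 369 CPM in fibroblasts of the 2 libraries, 241 in neutrophils and 197 in endothelium. Aoah, which removes acyl chains from LPS, was 296, 258 and 190 CPM in NK cells of the myeloid and stromal library, the axillary and the mediastinal atlas, and the scavenger receptors Cd36 and Scarb1 were 412 and 287 CPM in endothelium.

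In T cells of the naive axillary atlas Tlr4 was not even: the cluster led by Ly6c2 had 12 CPM (46 UMIs, interval 8.79 to 16.0) and the cluster led by Fstl4 had 0.511 CPM (3 UMIs, 0.105 to 1.49). Clusters of the same library share its depth and free RNA, and no test was made.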
